A study of Mus musculus with 12 samples.

Results

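The genes described here are 9 transcripts of bacterial and nucleic acid sensing: 7 Toll-like receptor genes (Tlr1, Tlr2, Tlr4, Tlr6, Tlr7, Tlr9 and Tlr13), the co-receptor gene Cd14 and the adaptor gene Myd88. They were taken by symbol from a count table of 23621 gene symbols, and all 9 had a row and passed the filter on low counts. RNA sequencing had been carried out on 12 libraries of neutrophils from female Balb/c mice aged 8 weeks, in 3 groups of 4. The LDN group held low-density and the HDN group high-density neutrophils, both from the peripheral blood of mice that carried liver metastases, in a study that by its title concerns breast cancer. The Naïve group held bone marrow neutrophils. The labels name no treatment or allele, and do not say whether a library held 1 mouse or pooled mice. Blood and marrow, and tumour and no stated tumour, change together between these groups and Naïve. The 8 LDN and HDN columns also carry a date-like tag that the Naïve columns lack and that no label explains. In any comparison with Naïve these differences cannot be told apart.

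Toll-like receptors bind microbial molecules and some molecules released by damaged cells. TLR2 pairs with TLR1 or TLR6 at the cell surface to bind bacterial lipopeptides, and TLR4, with MD-2 and the lipid-binding protein CD14, responds to lipopolysaccharide. TLR7, TLR9 and TLR13 act inside endosomes, where they bind single-stranded RNA, CpG-rich DNA and bacterial ribosomal RNA, and TLR13 is found in mice and absent from humans. Most of these receptors signal through the adaptor MYD88, and neutrophils respond to several of them by prolonged survival, degranulation and cytokine release.

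Total counts were 23181686 to 26456768 in LDN, 20049857 to 30044508 in HDN and 18113922 to 27741885 in Naïve libraries. Levels are given as CPM, read counts over the library size after TMM scaling, and 3 reads, taken as the floor of detection, were worth 0.0954 to 0.153 CPM. Each difference is a log2 fold change ± SE, tested by quasi-likelihood in edgeR over 10604 genes with Benjamini-Hochberg adjustment and a threshold of 0.05. Whether each library stands for its own animal is not stated, and p-values describe only how these 12 libraries vary. Neutrophil markers were present throughout: 13 of them summed to 196400 to 258300 CPM in LDN, 79640 to 130800 CPM in HDN and 204700 to 238400 CPM in Naïve libraries. HDN 7 stood apart, with the lowest of those sums and a TMM factor of 1.28, against 1.01 to 1.05 in the other HDN libraries, so results that it decides are also given without it. The neutrophil sum was led by S100a8 and S100a9. S100a8 averaged 74350 CPM in LDN, 35720 CPM in HDN and 53260 CPM in Naïve, and S100a9 80290, 44710 and 69780 CPM. Csf3r (3962, 8660 and 3632 CPM) and Cxcr2 (2374, 2952 and 1064 CPM) were highest in HDN. Of the 13, 2 were higher and 9 lower in HDN than in Naïve, beside 30% and 29.9% over all genes tested. In LDN against HDN 9 were higher and 1 lower, beside 26% and 20.3%. The summed levels of the T cell, B cell and platelet marker lists were highest in Naïve. The sum of 5 T cell genes was 32.1 to 48.7 CPM in LDN and 3.51 to 18.8 CPM in HDN, against 192 to 266.5 CPM in Naïve. It was carried by Cd3d (34.7 CPM in LDN, 8.11 CPM in HDN and 213.7 CPM in Naïve on average), while Cd3e was lowest in Naïve (0.718 CPM in LDN, 0.535 CPM in HDN and 0.0876 CPM in Naïve). The platelet sum was carried by Itgb3 (26.5 CPM in LDN, 3.54 CPM in HDN and 112.7 CPM in Naïve). Itga2b was highest in HDN (2.31, 6.84 and 2.59 CPM in the same order). Pf4, Ppbp, Gp9 and Gp1bb were highest in Naïve but averaged at most 2.99 CPM. In bulk RNA, fewer cells of a type and less RNA per cell cannot be told apart.

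The counts of 3 genes carry an uncertainty that comes from sequence. Tlr1 and Tlr6 lie next to each other on mouse chromosome 5 and have coding sequences of 2385 and 2418 bases (GENCODE M21). Of the 2336 stretches of 50 bases in the Tlr1 coding sequence, 454 (19.4%) also occur in Tlr6, and the longest run that is identical in both has 229 bases. The run is shown because it is where a short read cannot tell the genes apart. The stretches below give it in capitals, with 30 bases on each side in lower case, from coding bases 1438 to 1726 of Tlr1 and 1477 to 1765 of Tlr6.
Tlr1: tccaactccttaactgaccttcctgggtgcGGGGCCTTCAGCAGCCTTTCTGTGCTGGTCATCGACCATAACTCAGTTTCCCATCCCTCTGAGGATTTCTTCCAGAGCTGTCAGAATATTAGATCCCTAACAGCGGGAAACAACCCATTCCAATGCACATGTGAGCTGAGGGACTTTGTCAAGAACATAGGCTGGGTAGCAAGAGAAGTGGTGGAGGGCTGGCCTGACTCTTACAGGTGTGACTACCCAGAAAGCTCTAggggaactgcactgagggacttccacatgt
Tlr6: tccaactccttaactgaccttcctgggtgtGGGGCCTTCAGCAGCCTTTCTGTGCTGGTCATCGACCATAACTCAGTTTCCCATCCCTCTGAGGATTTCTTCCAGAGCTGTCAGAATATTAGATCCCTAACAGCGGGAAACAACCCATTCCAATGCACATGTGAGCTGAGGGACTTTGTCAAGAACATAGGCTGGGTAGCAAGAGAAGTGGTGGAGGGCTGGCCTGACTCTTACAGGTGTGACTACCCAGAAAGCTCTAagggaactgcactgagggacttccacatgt
How the authors' counting treated reads that match both genes is not given in the sources used here. Of the 21 pairs of the 7 receptor genes, the other 20 shared no stretch of 50 coding bases on either strand. The exons of Myd88 overlap those of Acaa1a, a peroxisomal thiolase gene on the opposite strand, by 290 bases. The libraries were made with a stranded kit, per the labels, but the strand setting of the counting is not given. The other 8 genes overlap no annotated gene.

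Promoter windows of RefSeq (build GRCm38.p6, 250 bases before to 50 after the start) were given for 6 of the 9 genes, Tlr1, Tlr2, Tlr6, Tlr9, Tlr13 and Myd88. The windows of the lipopeptide receptor genes are shown because the pairing partners of TLR2 differed in the size of their changes. Capitals mark matches on either strand to 5 short motifs: the PU.1 core GAGGAA, a kappaB pattern (GGG and CC with any 5 bases between them), the AP-1 site TGANTCA, a C/EBP pattern TTGCNNAA and an interferon response core (GAAA, any 2 bases, GAAA). The first Tlr1 window is chr5:64933509-64933808, the Tlr2 window chr3:83841559-83841858, and the Tlr6 windows chr5:64959999-64960298 and chr5:64959117-64959416, all on the minus strand and printed 5′ to 3′ in the direction of transcription.
Tlr1 first window: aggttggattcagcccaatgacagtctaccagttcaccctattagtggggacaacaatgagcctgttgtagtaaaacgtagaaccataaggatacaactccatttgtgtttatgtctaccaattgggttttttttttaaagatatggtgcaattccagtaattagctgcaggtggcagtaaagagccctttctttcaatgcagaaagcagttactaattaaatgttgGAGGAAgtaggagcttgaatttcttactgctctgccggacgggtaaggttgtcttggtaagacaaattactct
Tlr2: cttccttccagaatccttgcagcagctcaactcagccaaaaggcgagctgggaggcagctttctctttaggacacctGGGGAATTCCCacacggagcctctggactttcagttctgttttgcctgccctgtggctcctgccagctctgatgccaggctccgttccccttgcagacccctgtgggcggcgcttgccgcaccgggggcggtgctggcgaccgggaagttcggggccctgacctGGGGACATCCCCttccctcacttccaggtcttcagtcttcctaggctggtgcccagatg
Tlr6 first window: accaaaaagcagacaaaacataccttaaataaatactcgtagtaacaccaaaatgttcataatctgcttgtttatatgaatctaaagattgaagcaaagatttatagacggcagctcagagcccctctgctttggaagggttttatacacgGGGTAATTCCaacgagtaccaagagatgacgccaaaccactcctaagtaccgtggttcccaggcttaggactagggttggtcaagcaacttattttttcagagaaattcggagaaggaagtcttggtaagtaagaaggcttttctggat
Tlr6 second window: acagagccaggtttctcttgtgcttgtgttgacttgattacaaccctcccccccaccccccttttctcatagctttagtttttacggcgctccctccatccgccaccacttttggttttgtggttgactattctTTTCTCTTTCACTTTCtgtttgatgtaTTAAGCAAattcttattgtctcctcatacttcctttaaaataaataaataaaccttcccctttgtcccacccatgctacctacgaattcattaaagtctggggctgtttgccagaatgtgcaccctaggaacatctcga
The Tlr1 window held the PU.1 core at position -23 from the start, and a second Tlr1 window held none of the 5 motifs. The Tlr2 window held overlapping kappaB matches beginning at -173 and -9. The first Tlr6 window held a kappaB match at -99. The second held interferon response cores at -116 and -110, which overlap, and a C/EBP match at -89. Among 32851 mouse promoter windows of the same length, 28.3% held the PU.1 core, 50.8% the kappaB pattern, 10.8% the C/EBP pattern, 7.81% the AP-1 site and 3.44% the interferon response core. In the windows that are not shown, Tlr9 held the AP-1 site at -58 and the PU.1 core at -112 and 13, Tlr13 the PU.1 core at -83 and a C/EBP match at 1, and Myd88 an interferon response core at -40. These are letter matches only and say nothing of binding.

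**Figure D1:**
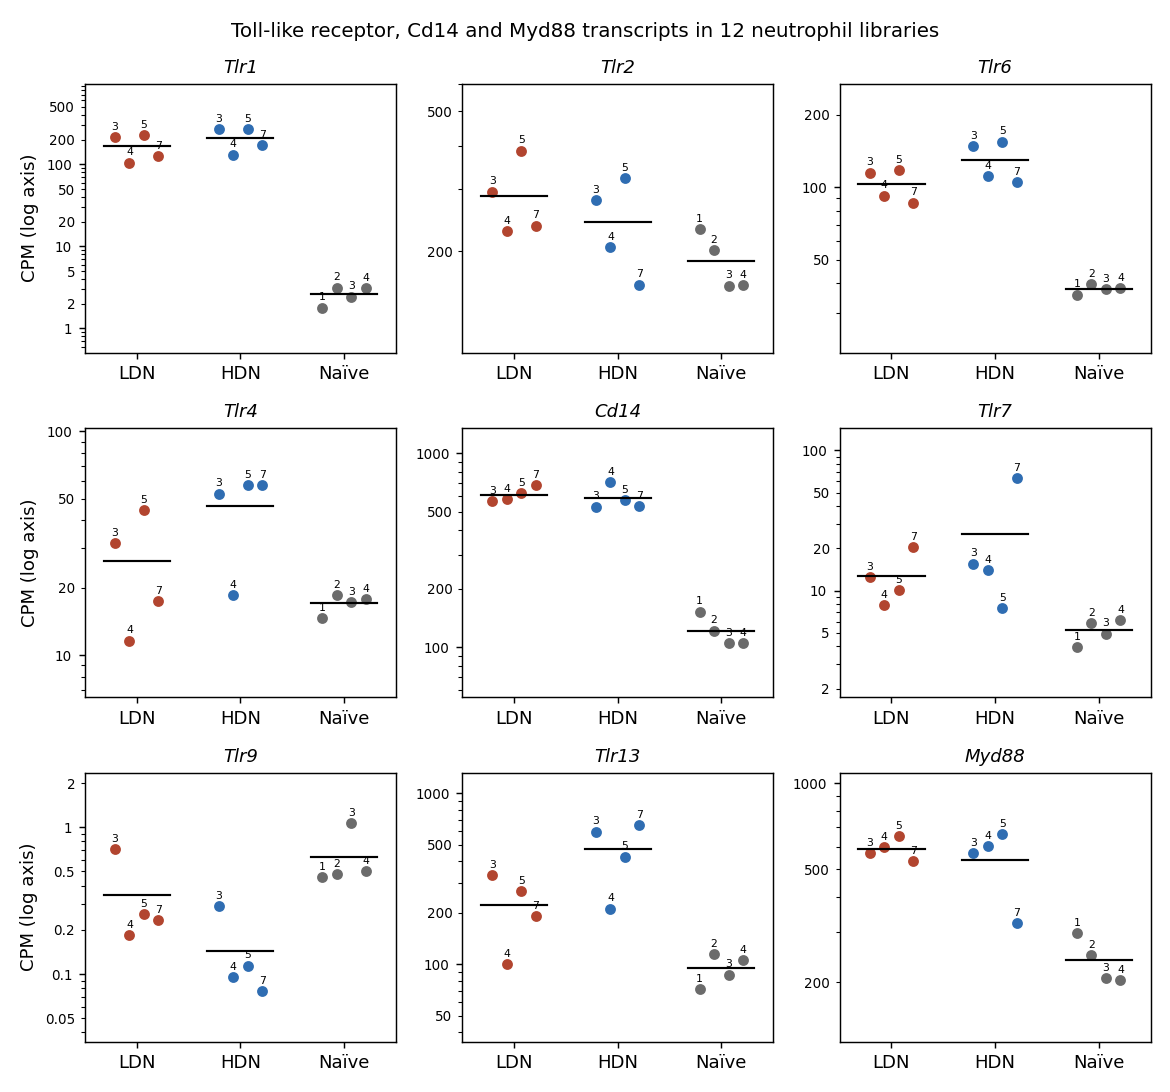
Level of each of the 9 transcripts in every library (CPM, log axis, a separate range for each gene), with LDN on the left, HDN in the middle and Naïve on the right. Points carry the library number and lines are group means (n = 4 each); Tlr1 in all 8 blood libraries lies above 100 CPM, against at most 3.14 CPM in Naïve.

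The 9 transcripts spanned a wide range of abundance. Per kilobase of exon, Cd14 and Myd88 were the most abundant in every group, at 373 ± 31.6 and 300 ± 25.5 CPM per kb in LDN, 357 ± 50.5 and 275 ± 76.4 in HDN and 73.9 ± 13.6 and 122 ± 22.7 in Naïve (SD, n = 4 each), with Myd88 above Cd14 in Naïve and Cd14 there within its SD of Tlr2 (62.4 ± 11.6). Among receptors the order of mean levels was Tlr2, Tlr13, Tlr1, Tlr6, Tlr4, Tlr7 and Tlr9 in LDN, with Tlr13 at 55.0 ± 24.9 and Tlr1 at 53.8 ± 19.5 CPM per kb, less apart than their SDs. In HDN the order was Tlr13, Tlr2, Tlr1, Tlr6, Tlr4, Tlr7 and Tlr9, and Tlr2 at 80.3 ± 24.1 and Tlr1 at 67.4 ± 22.2 CPM per kb differed by less than their SDs. In Naïve Tlr1 came after all receptors but Tlr9, at 0.838 ± 0.202 CPM per kb. These levels use GENCODE M21 exon lengths, which may not be those of the authors' annotation.

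The comparison of LDN with HDN asked how the density fractions of blood from mice with metastases differ. Of the 9 genes, 1 was lower in LDN (Tlr13), 0 were higher and 8 did not pass, while 46.3% of all genes tested passed, 26% higher and 20.3% lower. For none of the 9 did the libraries of the groups separate, against 39.2% of genes tested (23.6% higher and 15.7% lower). The median log2 fold change was -0.33 over the 9 genes and 0.02 over all genes tested. The libraries of the same number in LDN and HDN deviated together, and a fit with that number as a block called 4 genes lower (Tlr1, Tlr4, Tlr6 and Tlr13) and 1 higher (Tlr9). With that block, 6187 of all 10604 genes tested passed, 3377 higher and 2810 lower. The Tlr9 call rests on 31 reads in LDN and 14 in HDN.

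The comparison of HDN with Naïve set blood neutrophils against marrow neutrophils. Of the 9 genes, 7 were higher in HDN (Tlr1, Tlr4, Tlr6, Tlr7, Tlr13, Cd14 and Myd88), 1 was lower (Tlr9) and Tlr2 did not pass. Over all genes tested 59.8% passed, 30% higher and 29.9% lower. The libraries separated for 6 of the 7 higher genes, all but Tlr4, and for Tlr9, against 53.3% of genes tested (25.5% higher and 27.8% lower). Tlr9 passed the filter on low counts only through Naïve, as 0 HDN libraries reached its minimum of 0.415 CPM, so its call and its separation had to favour Naïve and nothing is read from them. The median log2 fold change was 1.78 over the 9 genes and 0.04 over all.

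The comparison of LDN with Naïve used the same Naïve libraries. Here 6 of the 9 were higher in LDN (Tlr1, Tlr2, Tlr6, Tlr13, Cd14 and Myd88), 0 were lower and Tlr4, Tlr7 and Tlr9 did not pass, while 54.2% of genes tested passed, 27.4% higher and 26.8% lower. Libraries separated for 5 genes, Tlr1, Tlr6, Tlr7, Cd14 and Myd88, against 55.3% of genes tested (27.5% higher and 27.8% lower). The median was 1.29 over the 9 genes and 0.015 over all. Because both comparisons rest on the same Naïve libraries, each gene's values are given side by side below and no overlap between them is counted.

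**Figure D2:**
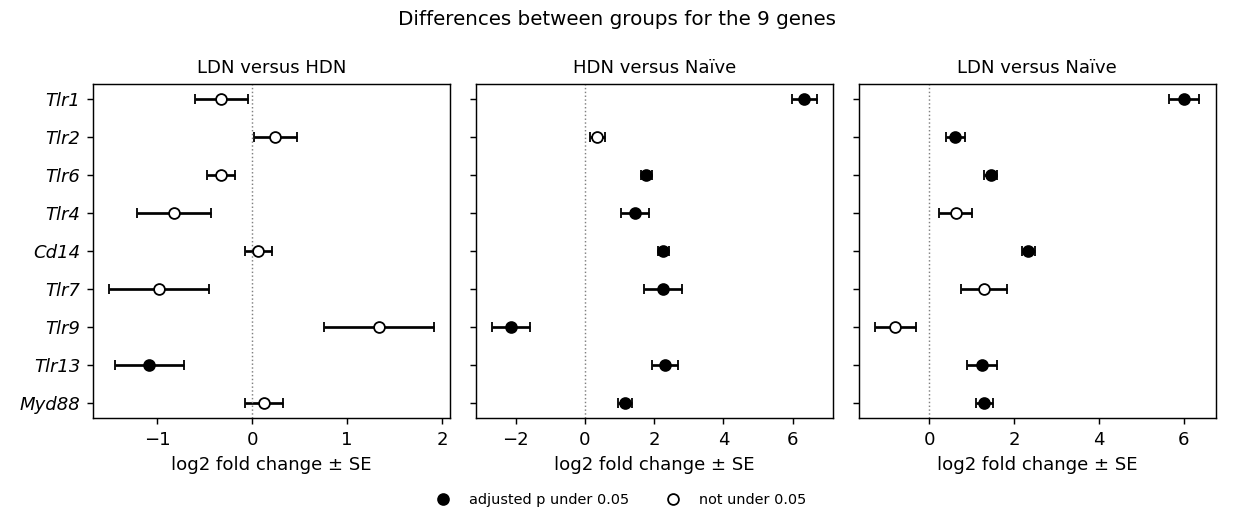
Log2 fold change ± SE of each gene (rows) in LDN against HDN, HDN against Naïve and LDN against Naïve, from edgeR's quasi-likelihood fit to 12 libraries; each panel has its own range. Filled points have an adjusted p under 0.05: 1 gene in the first panel, 8 in the second and 6 in the third, with Tlr1 at 6.33 in the second. The filled Tlr9 point in the second panel had to favour Naïve because of the filter on low counts.

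Tlr1, whose product joins TLR2 to bind triacylated lipopeptides, showed the widest difference from Naïve of the 9. It stood at 213, 105, 226.5 and 127 CPM in LDN 3, 4, 5 and 7, at 271, 131.5, 266 and 173 CPM in HDN 3, 4, 5 and 7, and at 1.797, 3.14, 2.44 and 3.08 CPM in Naïve 1 to 4. All blood libraries lay far above all Naïve libraries, and LDN and HDN overlapped. Tlr1 was 80.5-fold higher in HDN than in Naïve (6.33 ± 0.36, adjusted p = 6.9e-09) and 64.2-fold higher in LDN than in Naïve (6.0 ± 0.36, adjusted p = 2.05e-08). The Naïve value rested on 241 reads in all, so it lay well above the floor.

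Between the blood fractions Tlr1 did not pass, with a log2 fold change of -0.33 ± 0.28 in LDN against HDN (adjusted p = 0.354). It was lower in LDN in 4 of 4 pairs of the same number, by -0.45 to -0.23, and passed with the replicate block (-0.34, adjusted p = 0.0317). In both fractions libraries 3 and 5 had more than libraries 4 and 7. The authors' deposited table gave Tlr1 log2 fold changes of -0.36 for LDN against HDN, 6.20 for HDN against Naïve and 5.84 for LDN against Naïve.

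Tlr6, the neighbour of Tlr1 and the other partner of TLR2, for diacylated lipopeptides, moved in the same directions over a narrower range. It stood at 115, 92.4, 118 and 86.4 CPM in LDN 3, 4, 5 and 7, at 148, 111, 155 and 105 CPM in HDN, and at 35.9, 39.55, 37.7 and 38.3 CPM in Naïve. The Naïve libraries were nearly equal and all lay below the blood libraries. Tlr6 was 3.43-fold higher in HDN than in Naïve (1.78 ± 0.15, adjusted p = 2.76e-07) and 2.72-fold higher in LDN than in Naïve (1.45 ± 0.15, adjusted p = 3.09e-06). Per kilobase of exon, Tlr6 lay below Tlr1 in LDN (28 against 53.8 CPM per kb) and HDN (35.3 against 67.4), and above it in Naïve (10.3 against 0.838).

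For Tlr6 in LDN against HDN the log2 fold change was -0.33 ± 0.15 (adjusted p = 0.0786), with overlapping libraries. It was lower in LDN in 4 of 4 pairs, by -0.39 to -0.27, and passed with the replicate block (-0.33, adjusted p = 0.00369). It also passed without HDN 7 (-0.47, adjusted p = 0.0177) and in the authors' deposited table (-0.38, adjusted p = 0.0475).

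Tlr2, the common partner, differed least from Naïve among the genes that are not near the floor. Its levels were 296, 228, 387 and 237 CPM in LDN 3, 4, 5 and 7, 279, 206, 322.5 and 161 CPM in HDN, and 231, 201, 159.6 and 159.9 CPM in Naïve 1 to 4. The 3 groups overlapped one another. Tlr2 was 1.52-fold higher in LDN than in Naïve (0.61 ± 0.23, adjusted p = 0.0353), and in HDN against Naïve it did not pass (0.36, adjusted p = 0.179).

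The LDN call for Tlr2 was fragile. It ended without LDN 3 (adjusted p = 0.0787), LDN 5 (0.146), Naïve 2 (0.0653), Naïve 3 (0.0946) or Naïve 4 (0.0933). Without HDN 7, which had the lowest HDN level, HDN against Naïve passed (0.55, adjusted p = 0.0397). In LDN against HDN Tlr2 was at 0.24 ± 0.23 (adjusted p = 0.393), and it was higher in LDN in 4 of 4 pairs, by 0.08 to 0.56, without passing under the replicate block (0.26, adjusted p = 0.113). Within the pairs, the partner genes Tlr1 and Tlr6 were thus below 0 and Tlr2 above 0 in LDN relative to HDN.

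Cd14, which encodes a lipid-binding surface protein that hands lipopolysaccharide to TLR4 and MD-2, was about equally high in both blood fractions. It stood at 568, 578, 621 and 682 CPM in LDN 3, 4, 5 and 7, at 531, 707, 572 and 533 CPM in HDN, and at 153, 122, 105 and 105 CPM in Naïve. Every blood library lay above every Naïve library. Cd14 was 5.04-fold higher in LDN than in Naïve (2.33 ± 0.15, adjusted p = 4.13e-08) and 4.83-fold higher in HDN than in Naïve (2.27 ± 0.15, adjusted p = 2.3e-08). In LDN against HDN the difference was 0.06 ± 0.14 (adjusted p = 0.743), and its sign turned with the scaling and with single libraries.

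CD14 protein is best known as a marker of monocytes and macrophages, whose other markers ran the other way in sum and were mixed gene by gene. The 12 genes of that list with a row summed to 358 to 537 CPM in LDN and 373 to 578 CPM in HDN, against 624 to 833 CPM in Naïve. Of its 11 tested genes, 5 were higher and 4 lower in LDN than in Naïve, and 3 were higher and 5 lower in HDN than in Naïve. Over all genes tested, 27.4% were higher and 26.8% lower in LDN, and 30% and 29.9% in HDN. C1qa and C1qb were at 0 in all HDN libraries. The highest monocyte sum in blood, in HDN 5, was below the lowest in Naïve.

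Tlr4, the lipopolysaccharide receptor gene, was far less abundant than Cd14 per kilobase (4.82 CPM per kb in LDN, 8.53 in HDN and 3.13 in Naïve) and varied widely within the blood groups. It stood at 31.7, 11.6, 44.6 and 17.5 CPM in LDN 3, 4, 5 and 7, at 52.7, 18.5, 57.5 and 57.7 CPM in HDN, and at 14.7, 18.6, 17.3 and 17.8 CPM in Naïve. HDN 4 lay far below the other HDN libraries and among the Naïve ones. Tlr4 was 2.73-fold higher in HDN than in Naïve (1.45 ± 0.39, adjusted p = 0.0061), with libraries that overlapped. In LDN against Naïve it did not pass (0.62, adjusted p = 0.195).

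The log2 fold change of Tlr4 in LDN against HDN was -0.82 ± 0.39 (adjusted p = 0.0983). Tlr4 was lower in LDN in 4 of 4 pairs, by -1.73 (pair 7) to -0.37 (pair 5), and passed with the replicate block (-0.87, adjusted p = 0.00164). Without HDN 4 it passed without the block as well (-1.09, adjusted p = 0.0160), as it did without LDN 5 (adjusted p = 0.0227). Ly96, which encodes MD-2, stood at 8.52 CPM in LDN, 9.46 CPM in HDN and 9.94 CPM in Naïve on average and passed in no comparison.

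Tlr13, the endosomal receptor gene for bacterial ribosomal RNA, was the only one of the 9 to pass in LDN against HDN. It stood at 334, 99.6, 269 and 191 CPM in LDN 3, 4, 5 and 7, at 598, 211, 427 and 653 CPM in HDN, and at 71.2, 114, 86.8 and 106 CPM in Naïve. LDN and HDN overlapped because LDN 3 and LDN 5 lay above HDN 4. Tlr13 was 2.12-fold lower in LDN than in HDN (-1.08 ± 0.36, adjusted p = 0.0256) and lower in 4 of 4 pairs, by -1.77 to -0.67. With the replicate block the value was -1.09 (adjusted p = 0.000379), and the authors' deposited table gave -1.10 (adjusted p = 0.00661).

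The Tlr13 call depended on single libraries where the pairs were not used. It ended without LDN 7 (adjusted p = 0.0585), HDN 3 (0.0681) or HDN 7 (-0.93, adjusted p = 0.0605), and when only LDN and HDN entered the fit (-1.16, adjusted p = 0.0512). Against Naïve, Tlr13 was 5.00-fold higher in HDN (2.32 ± 0.38, adjusted p = 0.000117), with no overlap, and 2.36-fold higher in LDN (1.24 ± 0.36, adjusted p = 0.0107), where LDN 4 lay among the Naïve libraries.

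Tlr7, which encodes an endosomal receptor for single-stranded RNA, had 1 library that stood far out. It stood at 12.5, 7.89, 10.1 and 20.5 CPM in LDN 3, 4, 5 and 7, at 15.6, 14.1, 7.499 and 63.5 CPM in HDN, and at 3.94, 5.87, 4.93 and 6.16 CPM in Naïve. Number 7 was the highest library of both blood fractions, and every blood library lay above every Naïve one. Tlr7 was 4.82-fold higher in HDN than in Naïve (2.27 ± 0.55, adjusted p = 0.00282), and without HDN 7 the log2 fold change was 1.28 (adjusted p = 0.00438). In LDN against Naïve it was 1.29 ± 0.54 (adjusted p = 0.0586), and it passed without HDN 7 (1.27, adjusted p = 0.00328), where the shared estimate of spread was smaller.

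Between the fractions, Tlr7 was at -0.98 ± 0.52 (adjusted p = 0.141). Without HDN 7 no difference was left to measure, with a log2 fold change of -0.002 (adjusted p = 0.997). HDN 7 also had the highest level of Tlr8, the neighbour of Tlr7 on chromosome X, with 48.7 CPM, against 9.38 to 20.1 CPM in the other HDN libraries. Its sum over 7 plasmacytoid dendritic cell markers, 14.0 CPM, lay within the range of the others (13.5 to 26.1 CPM), and its monocyte sum of 373 CPM was the lowest in HDN, although F13a1 of that list was at 75.9 CPM, against 2.67 to 24.6 CPM in the others. In HDN the plasmacytoid sum was led by Bst2 (10.85 CPM on average) and Tcf4 (6.36 CPM), while Siglech and Ccr9 were at 0. The part of such cells in HDN 7 was not tested.

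Tlr9, the receptor gene for CpG-rich DNA, was close to the floor. It had 17, 4, 5 and 5 reads in LDN 3, 4, 5 and 7, 6, 3, 3 and 2 reads in HDN, and 12, 13, 21 and 10 reads in Naïve 1 to 4, which is 0.185 to 0.710 CPM in LDN, 0.0763 to 0.291 CPM in HDN and 0.459 to 1.07 CPM in Naïve. Of the HDN libraries, 3 had 3 reads or fewer. The filter's minimum of 0.415 CPM was reached by 1 library in LDN and 0 in HDN, against 4 in Naïve, so Tlr9 entered the tests because it was high in Naïve.

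By summed reads, Tlr9 in HDN was 0.222 times its level in Naïve (14 against 56 reads, exact 95% interval 0.114 to 0.404, counting error only), with a test value of -2.14 ± 0.54 (adjusted p = 0.00378). In LDN the ratio to Naïve was 0.592 (31 against 56 reads, interval 0.369 to 0.935), and the test did not pass (-0.80, adjusted p = 0.177) unless LDN 3 was left out (-1.46, adjusted p = 0.0230). Because Tlr9 passed the filter through Naïve, these comparisons favoured Naïve from the start, and nothing is read from their ratios, intervals or calls. The intervals also leave out the spread between libraries. The ratio of LDN to HDN was 2.67 (31 against 14 reads, interval 1.38 to 5.43), higher in 4 of 4 pairs, with a test value of 1.33 ± 0.58 (adjusted p = 0.0738, and 0.0398 with the replicate block). LDN 3 supplied 17 of the 31 LDN reads. In pairs 4, 5 and 7 LDN had 4, 5 and 5 reads and HDN 3, 3 and 2. The directions of those pairs rest on few reads, and little can be read from them. B cells and plasmacytoid dendritic cells are known to express Tlr9. The 6 B cell markers with a row summed to 1.815 to 7.56 CPM in LDN, 0.458 to 2.78 CPM in HDN and 17.4 to 46.7 CPM in Naïve. The 7 plasmacytoid dendritic cell markers summed to 9.87 to 16.0 CPM in LDN, 13.5 to 26.1 CPM in HDN and 13.8 to 24.9 CPM in Naïve. Of 4 tested, 3 were higher and 1 lower in HDN than in Naïve, and 2 were higher and 1 lower in LDN than in Naïve. Over all genes tested the shares were 30% and 29.9% in HDN, and 27.4% and 26.8% in LDN. Tcf4 and Bst2 led the plasmacytoid sum in LDN (6.935 and 4.75 CPM on average) and HDN (6.36 and 10.85 CPM). Spib led it in Naïve (13.04 CPM). Siglech, a defining gene of that list, was at 0 in LDN and HDN and had 4 reads in all of Naïve. The part of other cells in the Tlr9 values was not tested.

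Myd88, the adaptor gene on which all of these receptors draw, was higher in both blood fractions than in Naïve. It stood at 570.1, 598, 651 and 533 CPM in LDN 3, 4, 5 and 7, at 567.5, 604, 663 and 322 CPM in HDN, and at 298.5, 248.5, 206.5 and 203 CPM in Naïve. HDN 7 was well below the other blood libraries and still above all Naïve libraries. Myd88 was 2.46-fold higher in LDN than in Naïve (1.3 ± 0.20, adjusted p = 1e-04) and 2.25-fold higher in HDN than in Naïve (1.17 ± 0.20, adjusted p = 0.000176). In LDN against HDN it was at 0.13 ± 0.20 (adjusted p = 0.628), in pairs 3, 4 and 5 between -0.03 and 0.01 and in pair 7 at 0.72. Without HDN 7 the value was -0.11 (adjusted p = 0.561).

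**Figure D3:**
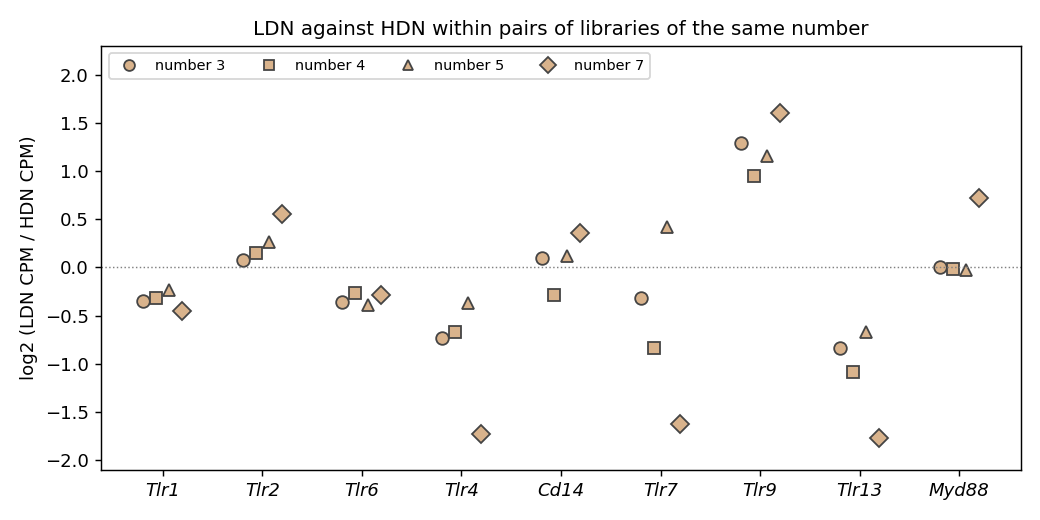
Log2 ratio of LDN to HDN (CPM) within each pair of libraries of the same number, for each gene; symbols are the pair numbers and values below 0 are lower in LDN. Tlr1, Tlr6, Tlr4 and Tlr13 lie below 0 in 4 of 4 pairs, Tlr2 and Tlr9 above 0 in 4 of 4, and pair 7 is the farthest from 0 for 8 of the 9 genes, all but Tlr6. The Tlr9 ratios rest on 17 reads or fewer in each library.

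For each of the 9, the genes with the most similar profile were found by the root mean square difference of centred log2 CPM over the 12 libraries, where 0 would be an identical profile. The closest matches were those of Tlr6 with Arhgap24 (0.073), Myd88 with Tarm1 (0.106), Tlr2 with Ppp1r3d (0.116), Cd14 with Cenpb (0.150) and Tlr4 with Aftph (0.154). Tlr13 was closest to Tbc1d15 (0.245) and Tlr7 to Trp53inp1 (0.302). Tlr9 and Tlr1 had no match as near, with 2610507I01Rik at 0.414 and Lrp12 at 0.452. The second nearest genes were Fundc1 for Tlr6 (0.129), Ppard for Myd88 (0.138), Lins for Tlr2 (0.157), P2rx4 for Cd14 (0.169), 5430427O19Rik for Tlr4 (0.225), Ice1 for Tlr13 (0.249), Clock for Tlr7 (0.4), Clec1b for Tlr9 (0.419) and Eps8 for Tlr1 (0.455). Lrp12 shared the wide difference of Tlr1, with 17.2 CPM in LDN, 17.6 CPM in HDN and 0.289 CPM in Naïve. Among the 9 themselves, Tlr6 and Myd88 were the closest (0.361), then Tlr2 and Myd88 (0.409) and Tlr4 and Tlr13 (0.467), whereas the neighbours Tlr1 and Tlr6 stood 2.13 apart. For Myd88 the fourth closest gene was Acaa1a (0.144), the gene whose exons overlap it, a match singled out after its value was seen. The part of shared reads in that match was not tested.

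The wider pathway was described with a list of 58 genes in 7 roles, of which 54 had a row and 49 were tested. In LDN against HDN 13 were higher, 11 lower and 25 did not pass, with a median log2 fold change of -0.02. In HDN against Naïve 19 were higher, 12 lower and 18 did not pass, with a median of 0.205, and in LDN against Naïve 22 were higher, 9 lower and 18 did not pass, with a median of 0.22. Over all genes tested the shares were 26% higher and 20.3% lower in LDN against HDN, 30% and 29.9% in HDN against Naïve, and 27.4% and 26.8% in LDN against Naïve. With the replicate block, 14 of the 49 were higher and 14 lower in LDN against HDN. In that fit 3377 of all 10604 genes tested were higher and 2810 lower.

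**Figure D4:**
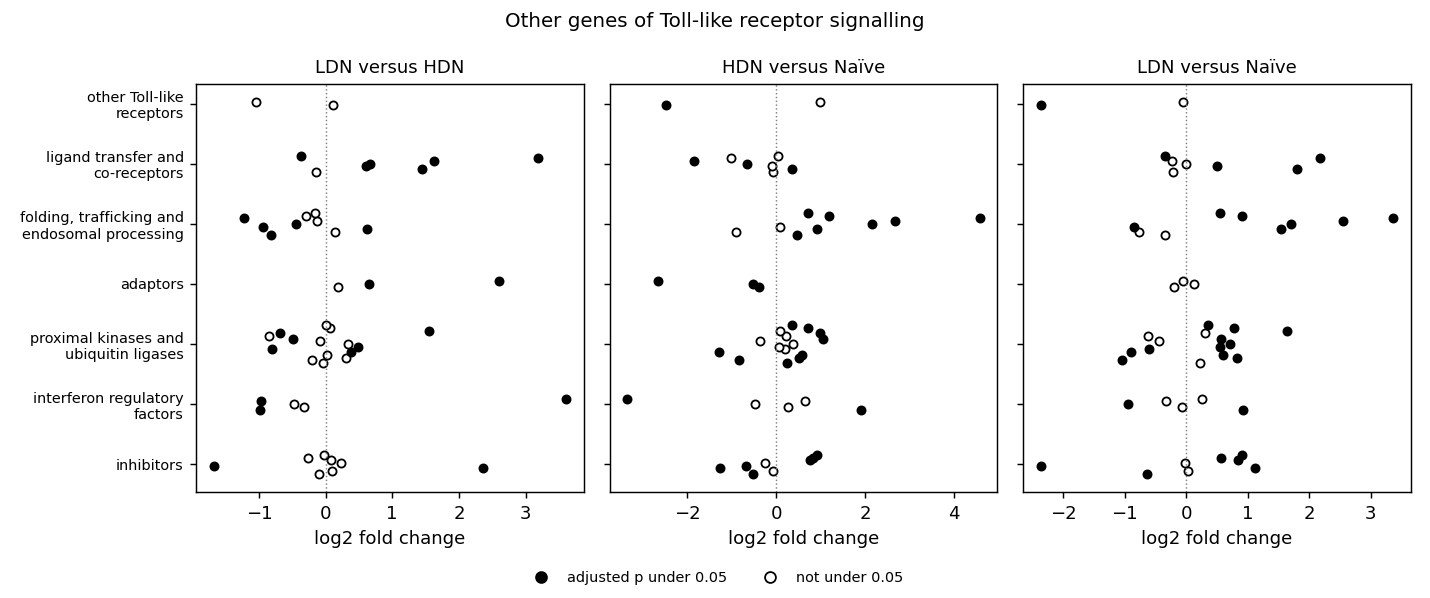
Log2 fold change of the 49 other tested genes of Toll-like receptor signalling (points), by role (rows), in the 3 comparisons; each panel has its own range. Filled points have an adjusted p under 0.05; the folding, trafficking and endosomal row has 7 higher and 0 lower in HDN against Naïve, where Hsp90b1 is also lower once HDN 7 is left out, 6 higher and 1 lower in LDN against Naïve, and 1 higher and 4 lower in LDN against HDN.

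Of the other receptors, Tlr5 and Tlr8 were tested, and Tlr3, Tlr11 and Tlr12 lay below the filter. Tlr5, the receptor gene for bacterial flagellin, ran against the surface receptors above. It stood at 13.4, 8.63, 15.6 and 7.49 CPM in LDN 3, 4, 5 and 7, at 13.2, 5.21, 18.7 and 4.85 CPM in HDN, and at 59.4, 61.3, 54.9 and 56.6 CPM in Naïve. All blood libraries lay below all Naïve libraries. Tlr5 was lower in HDN than in Naïve (-2.47 ± 0.39, adjusted p = 8.66e-05) and in LDN than in Naïve (-2.37 ± 0.39, adjusted p = 0.000162), with no difference past the test between LDN and HDN (0.10, adjusted p = 0.841).

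Tlr8, related to Tlr7, encodes another endosomal receptor. It stood at 14.9, 5.07, 14.15 and 10.4 CPM in LDN 3, 4, 5 and 7, at 20.1, 9.38, 13.9 and 48.7 CPM in HDN, and at 8.68, 12.4, 12.25 and 12.9 CPM in Naïve. The 3 groups overlapped, and HDN 7 stood above every other library. Tlr8 was at -1.05 ± 0.44 in LDN against HDN (adjusted p = 0.067). It passed with the replicate block (-0.87, adjusted p = 0.0226), with DESeq2 (-1.10, adjusted p = 0.0251) and without HDN 4 (-1.31, adjusted p = 0.0177), among others. In HDN against Naïve it was at 0.99 ± 0.44 (adjusted p = 0.0662), a value that passed with DESeq2 (adjusted p = 0.035), and in LDN against Naïve at -0.05 (adjusted p = 0.929). With HDN 7 left out, Tlr8 passed neither in LDN against HDN nor in HDN against Naïve.

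Among 7 tested ligand transfer and co-receptor genes, 5 were higher and 1 lower in LDN than in HDN, beside 26% higher and 20.3% lower over all genes. One of the 5, the receptor-like gene Cd180 (1.63, adjusted p = 0.0228), lost its call without LDN 3 (adjusted p = 0.108), HDN 4 (0.0501) or HDN 7 (0.0636) and when only LDN and HDN entered the fit (0.0668). Lbp, which encodes the lipopolysaccharide-binding protein that loads CD14, averaged 288 CPM in LDN, 106 CPM in HDN and 82.8 CPM in Naïve, with 1.45 ± 0.14 in LDN against HDN (adjusted p = 5.11e-06) and 1.798 ± 0.14 in LDN against Naïve (adjusted p = 3.18e-07). The integrin genes Itgb2 (0.66) and Itgam (0.60), which encode the subunits of complement receptor 3, were higher in LDN than in HDN, and the nuclear protein gene Hmgb1 was lower (-0.37, adjusted p = 0.0382), a call that ended in each fit that left out an LDN library. In HDN against Naïve 1 was higher and 2 lower, with Itgb2 at -0.67 and Lbp at 0.35 (adjusted p = 0.0440), the last lost without HDN 4 among others. In LDN against Naïve 3 were higher and 1 lower, with Itgam at 0.50 and Hmgb1 at -0.34 (adjusted p = 0.0477). This Hmgb1 call also ended in each fit that left out an LDN library (adjusted p = 0.0588 to 0.0774) and with limma-voom (0.0613), among others.

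Among 9 tested genes of receptor folding, trafficking and endosomal processing, 7 were higher and 0 lower in HDN than in Naïve, beside 30% higher and 29.9% lower over all genes. In LDN against Naïve 6 were higher and 1 lower, beside 27.4% and 26.8%. The count of 0 lower rests on HDN 7. Hsp90b1, which encodes the chaperone GRP94, stood at 40.4 CPM there, against 6.96 to 12.9 CPM in the other HDN libraries. It was at -0.90 in HDN against Naïve (adjusted p = 0.124), and it was lower without HDN 7 (-1.76, adjusted p = 0.000447) and with limma-voom (-1.31, adjusted p = 0.021). The largest differences were in genes of lysosomal cathepsins, proteases that cleave the endosomal receptors: Ctss averaged 113 CPM in LDN, 262.5 CPM in HDN and 11 CPM in Naïve. Its log2 fold change was 4.58 ± 0.33 in HDN against Naïve (adjusted p = 5.71e-08) and 3.36 ± 0.31 in LDN against Naïve (adjusted p = 1.23e-06). Ctsl was at 2.68 and Ctsb at 2.15 in HDN against Naïve, and at 2.54 and 1.70 in LDN against Naïve, while Slc15a4, a histidine and peptide transporter gene of endolysosomes, was lower in LDN (-0.85).

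Between the fractions 1 gene of this role was higher and 4 were lower in LDN, beside 26% higher and 20.3% lower over all genes. Ctss (-1.22, adjusted p = 0.0037), Slc15a4 (-0.95, adjusted p = 0.000989) and the receptor chaperone gene Cnpy3 (-0.82, adjusted p = 0.000382) were lower in LDN. The fourth, Ctsb (-0.45, adjusted p = 0.0396), lost its call with limma-voom (adjusted p = 0.0658) and when any LDN library, HDN 3, 4 or 5, or Naïve 2, 3 or 4 was left out (0.0511 to 0.111). Without HDN 7, Hsp90b1 was higher in LDN than in HDN (0.99, adjusted p = 0.0234). Ap3b1, a subunit gene of the AP-3 sorting complex, was higher (0.62, adjusted p = 0.0265), and that call ended with several alternatives, among them library sizes without the 20 most abundant genes (adjusted p = 0.0671).

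Of the other adaptor genes, 3 were tested, and those of the TRIF branch, which serves TLR3 and TLR4 without MYD88, were higher in LDN than in HDN. Ticam2, which encodes the bridging adaptor TRAM, stood at 8.52, 6.92, 10.1 and 6.42 CPM in LDN 3, 4, 5 and 7, at 1.45, 1.27, 1.56 and 0.954 CPM in HDN, and at 7.11, 7.42, 9.86 and 8.89 CPM in Naïve. HDN was the low group, and LDN and Naïve overlapped. Ticam2 was 2.61 ± 0.22 in LDN against HDN (adjusted p = 1.71e-06) and -2.66 ± 0.22 in HDN against Naïve (adjusted p = 2.07e-07). Ticam1, which encodes TRIF itself, was at 0.66 in LDN against HDN and -0.52 in HDN against Naïve, and Tirap, the bridging adaptor of MYD88, at -0.38 in HDN against Naïve. None of the 3 passed in LDN against Naïve. In counts, 2 were higher and 0 lower in LDN against HDN, and 0 higher and 3 lower in HDN against Naïve. Over all genes tested, 26% were higher and 20.3% lower in LDN against HDN. The shares were 30% and 29.9% in HDN against Naïve, and 27.4% and 26.8% in LDN against Naïve.

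The 15 tested kinases and ubiquitin ligases split both ways, with 3 higher and 3 lower in LDN against HDN, 7 higher and 2 lower in HDN against Naïve, and 8 higher and 3 lower in LDN against Naïve. Over all genes the shares were 26% higher and 20.3% lower, 30% and 29.9%, and 27.4% and 26.8%, in that order. Of the 7, Irak1 (0.25, adjusted p = 0.0493) lost its call when any Naïve library was left out (0.0593 to 0.142), among others. Ikbke, a kinase gene of the interferon branch, was higher in LDN than in HDN (1.55, adjusted p = 2.56e-05) and than in Naïve (1.64, adjusted p = 7.5e-06), while the related Tbk1 was lower in LDN than in HDN (-0.69, adjusted p = 0.0323, lost without HDN 7 among others) and higher in HDN than in Naïve (0.99, adjusted p = 0.00314). The ubiquitin ligase gene Peli1 was lower in LDN than in HDN (-0.81) and than in Naïve (-0.60). Against Naïve, Traf3 was lower in HDN (-1.28) and LDN (-0.90), Irak2, a MYD88-recruited kinase gene, was lower in HDN (-0.84) and LDN (-1.05), and Tab2 was higher in HDN (1.05). With the replicate block Irak4, the first kinase that MYD88 recruits, also passed in LDN against HDN (0.32, adjusted p = 0.0071, against 0.156 without the block).

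Interferon regulatory factors are transcription factors that the endosomal and TRIF pathways activate. Irf8 was 3.61 ± 0.45 in LDN against HDN (adjusted p = 3.18e-05) and -3.35 ± 0.45 in HDN against Naïve (adjusted p = 1.98e-05), at 3.82 to 6.60 CPM in LDN, 0.0763 to 0.685 CPM in HDN and 2.98 to 6.25 CPM in Naïve. Irf1 and Irf7 were lower in LDN than in HDN (-0.98 and -0.97). Irf1 was higher than in Naïve in HDN (1.91) and LDN (0.93), and Irf5 was lower in LDN than in Naïve (-0.95). Of 5 tested, the counts were 1 higher and 2 lower in LDN against HDN, and 1 higher and 1 lower in each comparison with Naïve. Over all genes, 26% were higher and 20.3% lower in LDN against HDN, 30% and 29.9% in HDN against Naïve, and 27.4% and 26.8% in LDN against Naïve. With the replicate block Irf3 (-0.33, adjusted p = 0.0267) and Irf5 (-0.48, adjusted p = 0.0197) passed as well in LDN against HDN.

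Among 8 tested inhibitors of the pathway, Sigirr, an inhibitory receptor gene, was higher in LDN than in HDN (2.37, adjusted p = 2.23e-05) and than in Naïve (1.11), and lower in HDN than in Naïve (-1.26). Tnfaip3, which encodes the deubiquitinase A20, was lower in LDN than in HDN (-1.68, adjusted p = 0.000232) and than in Naïve (-2.36, adjusted p = 7.85e-06). The ubiquitin ligase gene Rnf216 was higher than in Naïve in HDN (0.93) and LDN (0.91), as was the deubiquitinase gene Otulin in HDN (0.83), and Irak3, a kinase-like inhibitor gene, was lower in LDN than in Naïve (-0.63). In counts, 1 was higher and 1 lower in LDN against HDN, 3 and 3 in HDN against Naïve, and 4 and 2 in LDN against Naïve. The shares over all genes were 26% and 20.3%, 30% and 29.9%, and 27.4% and 26.8%, in that order.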

How the data were processed

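The labels' protocols name TRIzol and an RNeasy kit for RNA and a stranded polyA kit of KAPA for the libraries. Per the submitters' processing notes, CASAVA 1.8.2, Trimmomatic, STAR and DESeq2 1.16.1 were used. Build, annotation and strand setting are not stated there, and coordinates are printed only for the RefSeq promoter windows. The deposited table held raw counts of 23621 symbols in 12 columns, with the name of STAR's count output, per the file headers. Each column was matched to a sample by name, with 0 left over. The authors' deposited comparisons give, per the file headers, a mean normalized signal, a log2 fold change with its SE, a test statistic (a score) and p-values.

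From the counts, 10604 genes passed edgeR's filter by group (minimum count 10). Libraries were scaled by TMM, and a robust quasi-likelihood model with group as its only term was fitted to all 12 libraries (edgeR 4.0.16, R 4.3.3), after tests on simulated data. Alternatives were DESeq2 1.42.0, limma-voom (limma 3.58.1), other scalings, no filter, 2 groups only, a replicate block and each library left out. TMM makes fold changes relative to the bulk of genes. The libraries differ by less than 2-fold in depth, and without molecular identifiers floors and intervals cover counting error only. Chi-square between replicates was at least 3.37 per gene, where 1 would mean sampling noise alone. That lowest value belonged to Naïve 3 and Naïve 4, and the other pairs stood at 15.7 to 193.5. It cannot tell whether those 2 libraries came from separate animals or separate preparations.

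LDN and HDN share the numbers 3, 4, 5 and 7. Over the genes tested, deviations from the group mean correlated at 0.315 to 0.76 for the same number and at -0.608 to 0.412 otherwise. The numbers were therefore taken to pair LDN and HDN, though no label explains the numbers. Naïve numbers paired with neither (-0.127 to 0.16).

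The 9 genes and all gene lists were chosen with earlier results of these data known. All 9 are named in each comparison, with the 2 most similar profiles of each. Pathway genes named are up to 3 per role with the largest differences that passed, with a mean log2 CPM of 1 or more, plus members that went against their role. Ly96, Tlr8, Hsp90b1, Cd180, Irak1, Irak4, Irf3 and Acaa1a, and Ctsb and Irf5 in LDN against HDN, are named outside that rule, after their values were seen. Of the pathway list, Unc93b1, Pik3ap1, Chuk and Lrrc33 were not analysed here, and Tlr3, Tlr11, Tlr12, Cd36 and Sarm1 lay below the filter. Marker lists covered neutrophils and 10 other cell types.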

Additional observations from a re-analysis of the deposited data

Results flagged for a closer look

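Each of the 9 genes was checked for a library far from the other 3 of its group, in 27 groups of 4. Dixon's ratio was above its 95% critical value in 4 groups, where chance alone flags about 1 in 20. Tlr4 in HDN 4, at 18.5 CPM, lay below the other HDN libraries (52.7 to 57.7 CPM). Tlr7 in HDN 7, at 63.5 CPM, lay above the others (7.499 to 15.6 CPM). Tlr9 in LDN 3, at 0.710 CPM (17 reads), lay above the other LDN libraries (4 or 5 reads each), and Tlr9 in Naïve 3, at 1.07 CPM (21 reads), lay above the other Naïve libraries (10 to 13 reads). The B cell marker sum was 5.76 CPM in LDN 3, below the 7.56 CPM of LDN 5. It was 46.7 CPM in Naïve 3, the highest of that group, beside 42.8 CPM in Naïve 2 and Naïve 4. The part of B cells in these values was not tested.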

How the results depend on the processing

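In LDN against HDN the number of the 9 genes called lower, 1 in the report, was 2 with DESeq2, 2 with RLE scaling, 2 after the 20 most abundant genes were dropped from the library sizes (Tlr6 in addition each time) and 0 when only the 2 groups compared entered the fit. Leaving out 1 library at a time gave 0 to 3 lower and 0 to 1 higher, and 7 to 13 pathway genes lower, with 7 without LDN 4 or HDN 3. In the fit with the replicate block, 4 were lower and 1 higher, and over all genes 6187 passed, against 4914 without it. It changed no other call of the 9 in that comparison. The numbers of the Naïve libraries did not pair with the others. The same block moved Tlr2 past the test in HDN against Naïve (0.51, adjusted p = 0.0224), ended the calls of Tlr4 in HDN (0.86, adjusted p = 0.107) and of Tlr13 in LDN (0.77, adjusted p = 0.179) against Naïve, and turned Tlr4 in LDN against Naïve to -0.005. Cd14 in LDN against HDN turned to -0.043 without the 20 most abundant genes, a scaling that moved the median of all genes from 0.023 to -0.087, and ranged from -0.028 to 0.166 with 1 library left out. Myd88 ranged from -0.107 to 0.24. In LDN against Naïve, 0 to 1 of the 9 were lower with 1 library left out, the 1 being Tlr9 without LDN 3. Nothing is read from that call, as Tlr9 entered the tests through Naïve. Against Naïve the calls of Tlr1, Tlr6, Cd14 and Myd88 held in both blood groups, and those of Tlr7 and Tlr13 in HDN, under 19 alternatives each. Depth limits mainly Tlr9, which had 14 to 56 reads per group. The causes of these shifts were not tested.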
